A study of Mus musculus with 11 samples.

Results

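The 11 hippocampal RNA-seq libraries of 14-week-old F1 mice differed in how many of their uniquely aligned reads were assigned to no annotated gene. This unassigned read share was taken as a percent of the reads assigned to a gene, to no gene and to more than 1 gene. It split the libraries into 5 with a low share (under 11%) and 6 with a high share (11% or more). The mice were then compared, high with low, over all genes with at least 10 counts in total. All were wildtype F1 offspring of 129S6/SvEv and C57BL/6J parents. Their dams had received a control diet (CD, 2.3 mg folic acid per kg diet) or a folic acid-rich diet (FD, 40 mg folic acid per kg diet) before mating, with all dams on the control diet afterwards. Whole-hippocampus RNA was read single-end. The low group held 3 CD and 2 FD mice, 4 of them female and 1 male, and the high group held 3 CD and 3 FD mice, 2 of them female and 4 male.

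Reads outside annotated exons come from introns of transcripts that are still unspliced, from genes missing in the annotation and from other stretches of the genome. Unspliced transcripts reside in the nucleus, as do several abundant long noncoding RNAs (lncRNAs) such as Malat1 in nuclear speckles, where splicing factors are stored. Many genes of splicing factors also keep part of their transcripts in the nucleus with an unremoved ("detained") intron. Transcripts of ribosomal proteins and of enzymes of the respiratory chain are short, spliced and mostly cytoplasmic. The tables give only the number of unassigned reads, so their origin was not tested.

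The mice were selected on the unassigned share, so their shares are given as a description without a test. In the low group the share was 8.34% in CD female 1, 9.63% in FD female 3, 10.04% in FD female 1, 10.4% in CD male 1 and 10.5% in CD female 3. In the high group it was 11.1% in CD female 2, 11.5% in CD male 3, 12.1% in FD male 1, 12.2% in both FD male 2 and FD female 2, and 12.9% in CD male 2. The means were 9.79% ± 0.885 (SD, n = 5) and 12.01% ± 0.623 (SD, n = 6). CD female 3 and CD female 2, at 10.5% and 11.1%, were the mice just below and just above the limit, and no wide gap separated the groups. These groups were made from a measured value of the libraries and are not groups of the study, so an adjusted p below describes how counts differed between libraries split in this way. Both diets were represented in both groups, but the low group was mostly female and the high group mostly male.

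**Figure D1:**
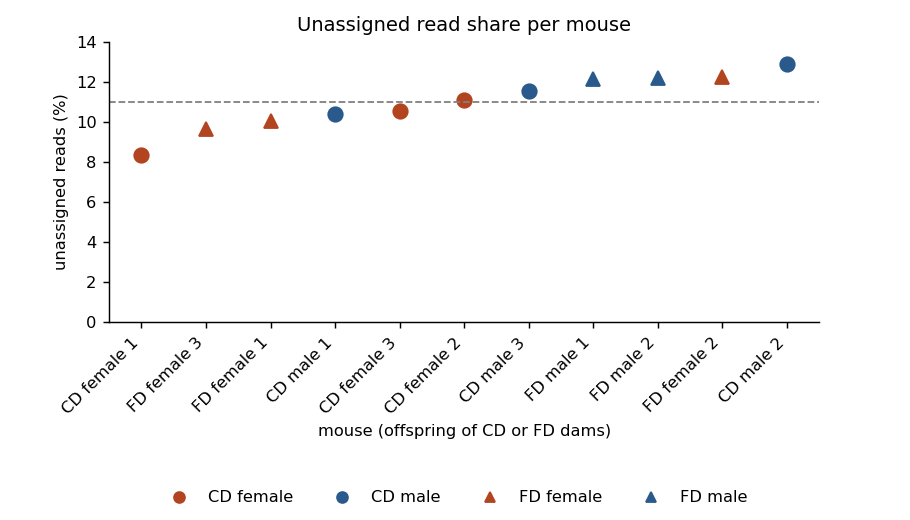
Unassigned reads as a percent of uniquely aligned reads (vertical axis) for each of the 11 mice (horizontal axis, in order of the share), with colours for sex, circles for offspring of CD dams, triangles for offspring of FD dams and a dashed line at 11%. The 5 mice below the line range from 8.34% to 10.5% and include 1 male, and the 6 mice above it range from 11.1% to 12.9% and include 4 males.

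Total counts on genes ranged from 14978566 to 34294397 in the low group and from 11737554 to 44447006 in the high group, so that the groups overlapped. These totals are part of the share that formed the groups and are given without a test. Markers of the labelled tissue were present in all libraries: the 12 markers of dentate granule neurons summed to 1064 to 1233 CPM, the count scaled to library size, and the 8 markers of CA1 pyramidal neurons to 682 to 839 CPM.

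LncRNAs and small noncoding RNAs took a larger part of the counts in the high group. LncRNA genes held 0.703%, 0.824%, 0.956%, 0.880% and 0.930% of the gene counts in the low mice, in order of their unassigned share, and a lowest, median and highest of 0.978%, 1.05% and 1.16% in the high mice. Every high mouse thus lay above every low mouse. The means were 0.859% ± 0.101 (SD, n = 5) and 1.06% ± 0.0606 (SD, n = 6), and the difference was past the threshold over the 9 library measures compared (exact permutation test, two-sided, p = 0.002165, the smallest that the splits into 5 and 6 mice allow, adjusted p = 0.00974). The within-sex difference, averaged over the sexes by their number of mice, was 0.210 percentage points (exact permutation test, p = 0.0133, the smallest that 75 splits within sex allow, adjusted p = 0.12). Among males this average rests on a single low mouse. Abundant lncRNAs such as Malat1 and Meg3, described below, are part of this share, so these results are not separate. The 9 tested genes on the list of abundant nuclear lncRNAs summed to 3186 to 5497 CPM in the low mice and 6380 to 7292 CPM in the high mice. Genes of small noncoding RNAs held 0.00843% ± 0.00121 (SD, n = 5) of the counts in the low mice and 0.0116% ± 0.00234 (SD, n = 6) in the high mice, again without overlap (exact permutation test, adjusted p = 0.00974; within sex p = 0.12).

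The other measures tested did not pass the threshold of the exact tests, an adjusted p under 0.05. Cytosolic ribosomal protein genes held 0.282% ± 0.0177 (SD, n = 5) in the low mice and 0.260% ± 0.00646 (SD, n = 6) in the high mice (exact permutation test, adjusted p = 0.0536). Genes of the mitochondrial genome held 4.15% ± 0.269 and 3.95% ± 0.171 of the counts (exact permutation test, adjusted p = 0.237). Reads that aligned to several places made up 16.4% and 15.7% (exact permutation test, adjusted p = 0.179). Pseudogenes, at 0.209% and 0.206%, and the 10 most counted genes, at 4.85% and 4.68%, gave adjusted p = 0.69 and adjusted p = 0.237 in the same exact permutation test. Reads on more than 1 gene, which also entered the share, made up 1.92% and 1.86% and are given without a test.

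Across genes, edgeR's quasi-likelihood test with maternal diet as covariate called 746 of 20589 genes higher in the high group (3.62%) and 621 lower (3.02%) at an adjusted p under 0.1. Most of these calls were lost once sex entered the fit. With sex as a further covariate only 3 genes were called, 0.0146% of those tested, all higher: Malat1, Thbs3 and ENSMUSG00000097225 (2081 genes had an unadjusted p under 0.05). The sexes themselves differed in 1257 genes with diet as covariate and in 11 once the share group was included, so for most genes the share group and sex cannot be told apart here. With the share entered as a number beside sex, 521 genes were called, 381 higher and 140 lower with a larger share, and 376 of the 521 were among the 1367 of the 2-group comparison. Pairing CD and FD mice of the same sex and number (replicate block) left 0 calls by edgeR (612 genes with an unadjusted p under 0.05). In that fit only the pair male 1 held a low and a high mouse, with 3 residual degrees of freedom. CD mice alone gave 0 calls (1949 at an unadjusted p under 0.05), and FD mice alone, where both low mice were female, gave 878. In females alone, 414 genes were called higher and 343 lower with diet as covariate, and 1 and 0 without it. Single mice weighed heavily. Without FD female 3 the test called 2 genes higher and 0 lower, without CD female 1 128 and 11, without CD male 2 180 and 19, and without CD male 1, which leaves only females in the low group, 2275 and 2475.

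Malat1, a nuclear lncRNA of speckles (chromosome 19, 5795690 to 5802672, GRCm38), had the smallest adjusted p, which it shared with ENSMUSG00000097225. Its level was 233, 280, 351, 533 and 366 CPM in the low mice, in order of their share, and 647 at the lowest, 763 at the median and 872 at the highest in the high mice. No low mouse reached the lowest high mouse, and CD male 1, the only low male, came closest. The log2 difference, high minus low, was 1.11 (SE 0.149, adjusted p = 0.00667), and 0.94 with sex as covariate (adjusted p = 0.01005). It was called without any 1 of the 11 mice. In CD mice alone the log2 difference was 0.92 and in FD mice alone 1.37. ENSMUSG00000097225, for which no symbol was found, differed by 1.16 (SE 0.150, adjusted p = 0.00667), with 1.95 to 4.37 CPM in the low and 5.98 to 8.38 CPM in the high mice.

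Other abundant nuclear lncRNAs were higher too. Of 15 on the list, 9 were in the tables and tested. Of these, 7 were called higher (77.8% against 3.62% of all genes) and 0 lower. The median log2 difference was 0.33 against -0.01 over all genes tested. Meg3 (chromosome 12, 109541001 to 109571726), a maternally expressed imprinted lncRNA, had 1272, 1755, 2263, 2256 and 2220 CPM in the low mice. In the high mice it had 2703 at the lowest, 2984 at the median and 3127 at the highest, so that the groups did not overlap. Its log2 difference was 0.59 (SE 0.110, adjusted p = 0.0246). Rian and Mirg, which lie in the same imprinted cluster as Meg3, differed by 0.21 and 0.33. Miat, a neuronal nuclear lncRNA, differed by 0.43 and Snhg11 by 0.55. Neat1, the lncRNA that builds paraspeckles, was not called at 0.09 (adjusted p = 0.749), nor was Pantr1 at -0.05 (adjusted p = 0.721). The list median was 0.31 with sex as covariate, 0.34 in CD mice, 0.36 in FD mice and 0.32 with the replicate block.

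Genes known for detained introns, most of them splicing factors, were higher in part. All 26 were tested, 17 were called higher and 0 lower (65.4% against 3.62% of all genes), and the log2 difference was above 0 in all 26. Ccnl2 (cyclin L2, chromosome 4, 155812489 to 155824543), which acts in splicing, had 84.7, 99.7, 99.8, 107 and 105 CPM in the low mice. In the high mice it had 120 at the lowest, 127 at the median and 135 at the highest. Tia1 (chromosome 6, 86404219 to 86433405), a regulator of splicing and translation, had 92.7, 112, 114, 135 and 129 CPM in the low mice against 148, 157 and 174 in the high mice. Both genes thus lay higher in every high mouse, by 0.35 (SE 0.056, adjusted p = 0.0246) and 0.44 (SE 0.076, adjusted p = 0.0246) on the log2 scale. The kinases Clk1 and Clk4, which phosphorylate SR proteins, differed by 0.48 and 0.39. Pnisr, Srsf11, Luc7l3 and Son, whose proteins belong to the splicing machinery or nuclear speckles, differed by 0.44, 0.35, 0.35 and 0.34. Srsf3 at 0.07, Tra2a at 0.07 and Tra2b at 0.01 were not called. The list median was 0.21, or 0.18 with sex as covariate. None of the 26 was called once sex was included, whereas 16 were called with the share as a number beside sex. With the replicate block the median was 0.02.

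**Figure D2:**
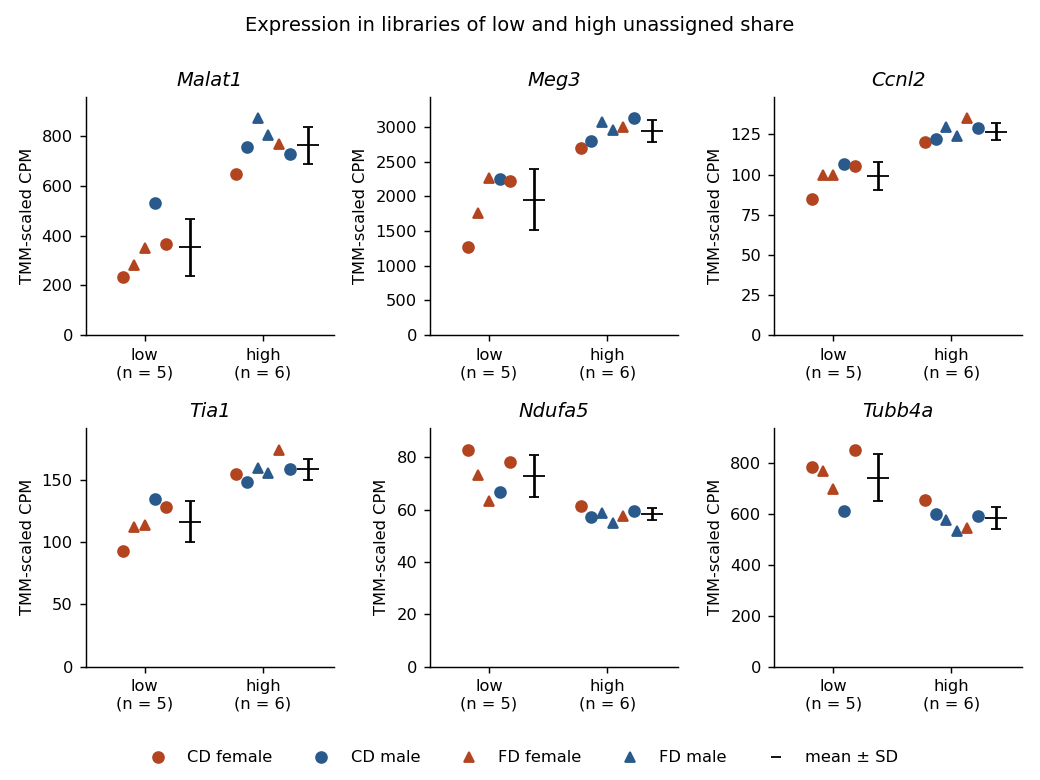
TMM-scaled CPM (vertical axes, from 0) of 6 genes in each mouse of the low and high groups (horizontal axes), with colours for sex, circles and triangles for offspring of CD and FD dams, and black bars for mean ± SD. Malat1, Meg3, Ccnl2 and Tia1 are higher in all high mice than in any low mouse, Ndufa5 is lower in all of them, and Tubb4a overlaps through CD male 1 at 611 CPM.

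Several noncoding classes had medians above that of all genes, though the share called higher among antisense, lincRNA and small nucleolar RNA genes was near the 3.62% of all genes. Of 921 antisense genes tested, 32 (3.47%) were called higher and 0 lower, with a median of 0.18. Of 641 lincRNA genes, 30 (4.68%) were called higher and 3 lower, with a median of 0.09. The 150 tested genes of small nucleolar RNAs, which guide the modification of ribosomal RNA and mostly lie in introns, had a median of 0.44, and 5 (3.33%) were called higher and 0 lower. Medians were 0.37 for 94 miRNA genes (5 higher), 0.55 for 56 snRNA genes (0 called) and 0.43 for 22 sense-intronic genes (2 higher). These genes are few of those annotated, since 150 of 1470 small nucleolar RNA genes and 94 of 1375 miRNA genes passed the count minimum. A mean under 1 CPM was found for 147 of the 150 small nucleolar RNA genes, 89 of the 94 miRNA genes and all 56 snRNA genes. In 76 of the 150, at least 1 mouse had no count. Means under 1 CPM also held for 716 of 921 antisense, 471 of 641 lincRNA and 17 of 22 sense-intronic genes. The medians of these classes thus rest largely on low counts. With sex as covariate the medians of these classes were between 0.08 and 0.38. With the replicate block they were 0.07 for antisense, 0.10 for lincRNA, 0.04 for small nucleolar RNA, 0.38 for miRNA, 0.28 for snRNA and 0.02 for sense-intronic genes. Host genes of small nucleolar RNAs, which share their introns, had a median of 0.02, and of 9 tested only Snhg17 was called (0.35, SE 0.087, adjusted p = 0.0519). Whether reads were assigned by strand is not stated, so reads of an antisense or sense-intronic gene and of its partner cannot be told apart.

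Grin1os (chromosome 2, 25291220 to 25298925), antisense to the gene of the NMDA receptor subunit Grin1, had 8.83, 10.5, 10.5, 10.96 and 11.9 CPM in the low mice and 14.0 to 16.1 CPM in the high mice, a log2 difference of 0.49 (SE 0.080, adjusted p = 0.0246). Srrm4os (chromosome 5, 116438720 to 116465487), antisense to the neuronal splicing regulator Srrm4, had the largest log2 difference among called genes of at least 1 CPM, 1.45 (SE 0.275, adjusted p = 0.0246). It had 0.200 to 1.40 CPM in the low mice and 1.54 to 3.04 in the high mice, with as few as 3 counts in a mouse. Gm26890, a lincRNA, differed by 1.32, from 0.399 to 0.788 CPM in the low mice to 0.768 to 2.05 in the high mice.

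Among protein-coding genes, the calls followed transcript length. The 13352 protein-coding genes that averaged 1 CPM or more (624 called higher, 4.67%, and 582 lower, 4.36%) were sorted into quintiles by exonic length, which is the length of all annotated exons merged. The median log2 difference was -0.12 in the shortest quintile, then -0.06, -0.02 and 0.02, and 0.08 in the longest. In the shortest quintile 19 genes were called higher and 343 lower, and in the longest 354 higher and 13 lower. Genomic span gave medians from -0.10 to 0.04, and the GC content of the longest transcript from 0.04 in the quintile with the least GC to -0.10 in that with the most. The share of the span that is intron gave a narrower range of medians, -0.06 to 0.01. Length and GC content overlap as properties. Among short genes the median was -0.17 in the 874 genes richest in GC and -0.05 in the 247 poorest, and among long genes it was 0.01 in 221 and 0.11 in 835. With sex as covariate the length medians ran from -0.09 to 0.05. With the replicate block both orders turned: the median was 0.04 in the shortest and -0.06 in the longest quintile, and -0.10 at the least and 0.11 at the most GC. Per mouse, the median centred log2 CPM of the longest quintile minus that of the shortest was -0.27, -0.16, -0.03, 0.11 and -0.23 in the low mice. It was 0.06 to 0.14 in the high mice. CD male 1, at 0.11, lay within the range of the high mice.

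**Figure D3:**
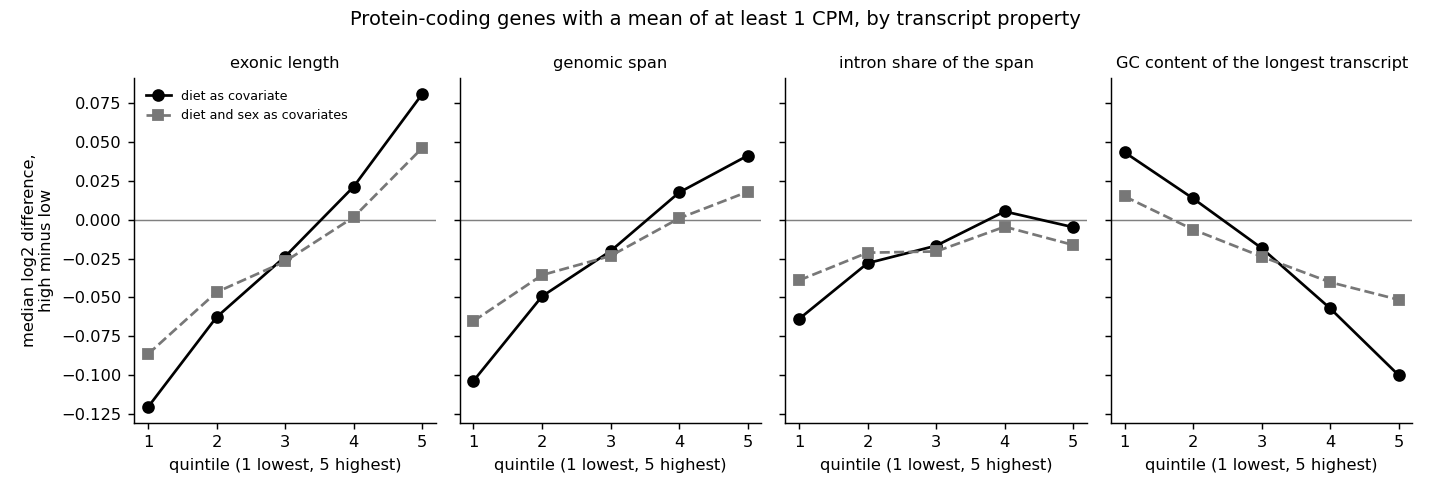
Median log2 difference, high minus low (vertical axis), of 13352 protein-coding genes in quintiles of exonic length, genomic span, intron share of the span and GC content of the longest transcript (horizontal axes, 1 lowest to 5 highest), with diet as covariate (circles) and with diet and sex (squares). The median climbs from -0.12 to 0.08 with exonic length and drops from 0.04 to -0.10 with GC content, and it moves less with sex as covariate. With the replicate block, not drawn, both orders turn.

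Long transcripts of neuronal genes and chromatin regulators were among the genes called higher. Ryr3, a calcium release channel whose gene spans 112631355 to 113217096 of chromosome 2, had 80.7, 93.7, 121, 132 and 97.7 CPM in the low mice and 148 to 179 CPM in the high mice, a log2 difference of 0.58 (SE 0.096, adjusted p = 0.0246). Kmt2a, a histone methyltransferase, had 145, 165, 234, 234 and 153 CPM in the low mice and 232 to 282 CPM in the high mice, so that the groups met, with a difference of 0.47 (SE 0.108, adjusted p = 0.0411). Of 20 chromatin regulators with long transcripts 3 were called higher (Kmt2a, Kmt2c and Chd7) and 0 lower. That is 15.0%, against 3.62% of all genes and 13.3% of the protein-coding genes in the longest quintile. Their median of 0.17 turned to -0.10 with the replicate block. Of 20 genes of the postsynaptic scaffold and glutamate receptors only the NMDA receptor subunit Grin2b was called, at 0.84 (SE 0.267, adjusted p = 0.0933). It had 60.1, 64.2, 152, 176 and 41.9 CPM in the low mice and 160 to 219 in the high mice, so that CD male 1 lay within the range of the high mice. The list median was 0.03. Fyco1, an adaptor of autophagosome transport, differed by 0.35 (SE 0.057), the zinc finger gene Zfp950 by 0.46 (SE 0.078) and Cdr1 by 0.58 (SE 0.096), each with adjusted p = 0.0246 and no overlap. Cdr1 overlaps the locus of a circular antisense RNA, and the 2 strands cannot be told apart in these counts. Pln, the regulator of the cardiac calcium pump, had one of the largest differences, 1.13 (SE 0.335, adjusted p = 0.0809), with 0.373 to 2.01 CPM in the low and 1.20 to 3.46 in the high mice.

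Nuclear genes of the respiratory chain were lower in part. Of 93 listed 92 were tested, 36 were lower and 1, Ndufab1, was higher (39.1% lower against 3.02% of all genes), with a median of -0.17, or -0.12 with sex as covariate. Ndufa5 (chromosome 6, 24518666 to 24528013), a subunit of complex I, had 82.9, 73.2, 63.3, 66.9 and 78.1 CPM in the low mice. In the high mice it had 54.9 at the lowest, 58.1 at the median and 61.4 at the highest, a log2 difference of -0.31 (SE 0.059, adjusted p = 0.0246). Atpif1, the inhibitor of the mitochondrial ATP synthase, differed by -0.29 (SE 0.061, adjusted p = 0.0344) without overlap. Of 82 cytosolic ribosomal protein genes tested 8 were lower (9.76% against 3.02% of all genes) and 0 higher, with a median of -0.11. In the shortest quintile of exonic length, 12.8% of protein-coding genes were called lower. Of the 13 protein genes of the mitochondrial genome only mt-Nd1, a complex I subunit, was called, at -0.18 (SE 0.057, adjusted p = 0.0896), with a list median of -0.14. The respiratory chain list overlapped between the groups per mouse through CD male 1, at -0.05 of mean centred log2 CPM against -0.14 to -0.04 in the high mice. None of its genes was called with sex as covariate, and with the replicate block its median was 0.04, that of the ribosomal protein genes 0.04 and that of the mitochondrial protein genes 0.07.

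Genes of neurites and the synaptic vesicle were lower in part. Tubb4a, a beta-tubulin of neurons and oligodendrocytes (chromosome 17, 57080066 to 57087782), had 786, 771, 700, 611 and 853 CPM in the low mice and 535 to 655 CPM in the high mice, with overlap through CD male 1. Its log2 difference was -0.34 (SE 0.069, adjusted p = 0.0333). Of 19 genes of synaptic vesicles and release 7 were lower (36.8% against 3.02% of all genes). The long active-zone gene Pclo was the only 1 of them called higher, at 0.53. Rab3a, a GTPase of vesicle release, differed by -0.20 (SE 0.044, adjusted p = 0.0387) and synapsin Syn1 by -0.25 (SE 0.057, adjusted p = 0.0399). The small X-linked genes Bex2 and Rtl8a differed by -0.26 and -0.44 (adjusted p = 0.0333 for both) without overlap. Metallothionein Mt1, which binds zinc and copper, differed by -0.50 (SE 0.107, adjusted p = 0.0344), and its groups overlapped, since CD male 1 had 98.7 CPM against up to 110 in the high mice. Wscd1 differed by -0.28 (SE 0.059, adjusted p = 0.0344).

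The lists of cell type markers were short, so their counts of calls are small even where the share called is large. Fewer cells of a type cannot be told apart from less RNA per cell in whole tissue. Of 15 oligodendrocyte markers 5 were lower (33.3% against 3.02% of all genes) and 0 higher, with a median of -0.28. The myelin enzyme Cnp had 374, 376, 358, 296 and 454 CPM in the low mice and 260 to 338 CPM in the high mice, a difference of -0.30 (SE 0.086, adjusted p = 0.0776), and Cldn11, a tight junction protein of myelin, differed by -0.38 (SE 0.109, adjusted p = 0.0777). Pllp, another myelin protein, differed by -0.37 (SE 0.078, adjusted p = 0.0344). Mbp, at -0.11, was not called. The summed oligodendrocyte markers ranged from 4625 to 7093 CPM in the low and from 4391 to 5509 CPM in the high mice. With sex as covariate the list median was -0.17, with the share as a number beside sex it was -0.02 per percentage point, and with the replicate block 0.16.

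Of 15 interneuron markers 4 were lower (Npy, Sst, Pvalb and Slc32a1), or 26.7% against 3.02% of all genes, and 0 higher. The GABA-synthesising enzymes Gad1 and Gad2 had differences of -0.03 and 0.05. Npy had 61.7, 64.8, 57.0, 41.9 and 71.8 CPM in the low mice and 39.4 to 48.5 in the high mice, and CD male 1 again lay within the high range. Of 10 markers of CA2 and CA3 pyramidal neurons Pcp4 (-0.30, SE 0.067, adjusted p = 0.0385), Bok and Necab2 were lower, or 30% of the list. No gene of the dentate granule, CA1, microglia, neocortex, meningeal fibroblast or blood lists was called by edgeR, and no heat shock chaperone. Of 14 astrocyte markers only Gpr37l1 was called, lower by 0.23, and of 10 markers of oligodendrocyte precursors only C1ql1, lower by 0.34. Of 12 endothelial markers only Flt1 was called higher (0.28), and of 10 mural cell markers only Myh11 (0.83, SE 0.263, adjusted p = 0.0939), with 4.97 to 14.3 CPM in the low and 9.28 to 27.3 CPM in the high mice. Of 18 immediate early genes, which follow neuronal activity, 4 were lower (Junb, Egr4, Ier2 and Bdnf), or 22.2% against 3.02% of all genes. Homer1 was the only 1 of them called higher, at 0.28, and the list median was -0.25.

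Neighbouring tissues varied between single mice. Of 14 markers of choroid plexus epithelium only Sostdc1 was called, at -0.49 (SE 0.152, adjusted p = 0.0888), and the list median was -0.53. The list summed to 49.0 to 98.0 CPM in the low mice and to 34.5 to 68.5 CPM in the high mice. Ttr, the transthyretin carrier made by this epithelium, had 18.5, 11.8, 14.4, 13.7 and 54.7 CPM in the low mice and 3.35 to 31.6 CPM in the high mice (log2 difference -0.96, adjusted p = 0.167). Otx2, its transcription factor, had -0.94 (adjusted p = 0.147) and Prlr, the prolactin receptor, 0.01 (adjusted p = 0.98). Of 10 ependymal markers Foxj1, Tmem212 and Rarres2 were lower (30% against 3.02% of all genes), with a list median of -0.35. Of 11 markers of thalamus and habenula Calb2 (-0.31) and Ramp3 (-0.53) were lower, and of 10 striatal markers Ppp1r1b (-0.36) and Six3 (-1.70). These made up 18.2% and 20% of their lists. Six3 had 1.04 CPM in FD female 3 and at most 0.233 CPM in the other mice. Ppp1r1b had 54.3 CPM in FD female 3 and 29.0 to 41.5 CPM in the other mice. The striatal list as a whole stood at 0.99 of mean centred log2 CPM in FD female 3 and at -0.30 to 0.27 in the other mice. The part of neighbouring tissue in the other differences was not tested.

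**Figure D4:**
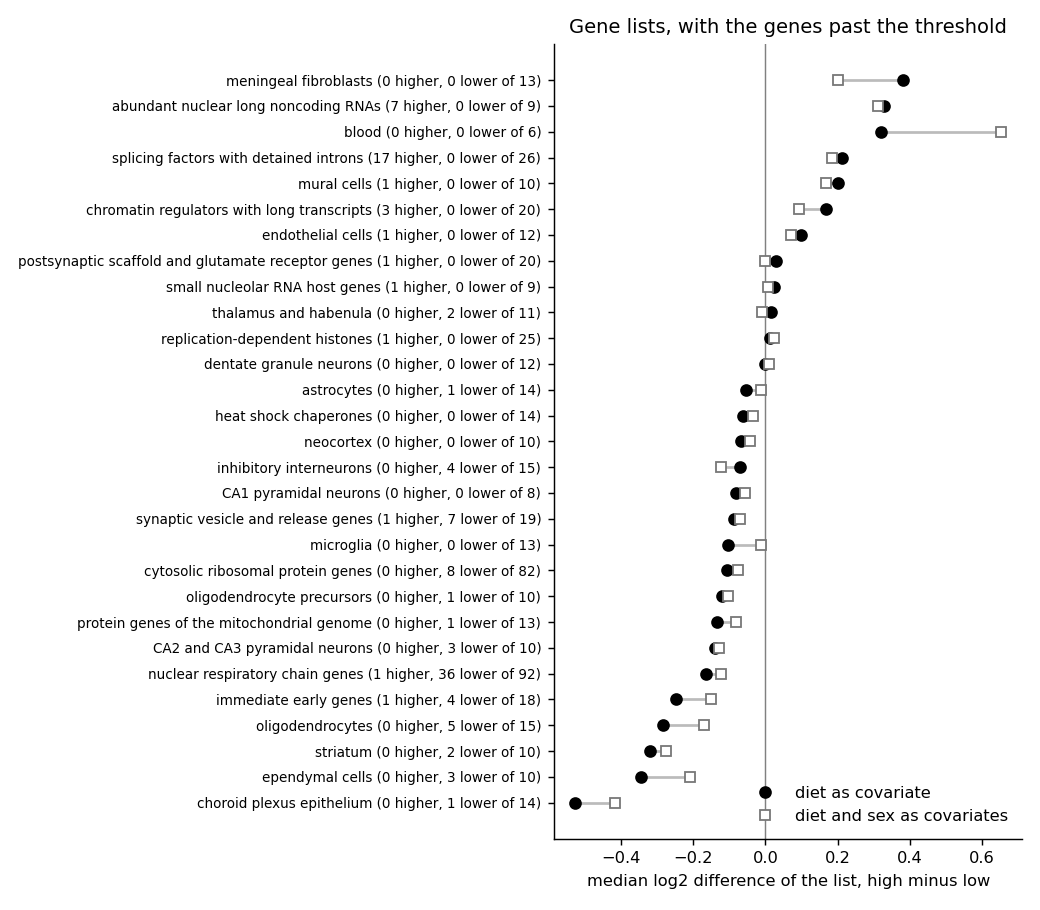
Median log2 difference, high minus low (horizontal axis), of each gene list (vertical axis, with the number of tested genes and of those called higher and lower), with diet as covariate (circles) and with diet and sex (open squares). Nuclear lncRNAs (0.33) and genes with detained introns (0.21) hold 7 and 17 genes called higher, and respiratory chain genes (-0.17) hold 36 called lower, while the choroid plexus list (-0.53) holds 1.

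The lists differed in whether their levels separated the groups mouse by mouse. For the nuclear lncRNAs the mean centred log2 CPM was -0.58 to -0.05 in the low mice and 0.09 to 0.28 in the high mice. For the genes with detained introns it was -0.31 to 0.00 and 0.03 to 0.16, and for small nucleolar RNA genes -0.28 to 0.00 and 0.02 to 0.18. The groups did not overlap in these 3 lists, whereas they overlapped in all cell type lists. They also did not overlap in the genes annotated as miscellaneous RNA, at -0.33 to -0.09 and -0.03 to 0.59. Of the 19 tested genes of that class, 17 had a mean under 1 CPM. Of the 150 small nucleolar RNA genes, however, 147 had a mean under 1 CPM. In oligodendrocyte markers CD female 3, at 0.43, stood above the other low mice, and CD male 1, at -0.17, stood below them.

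**Figure D5:**
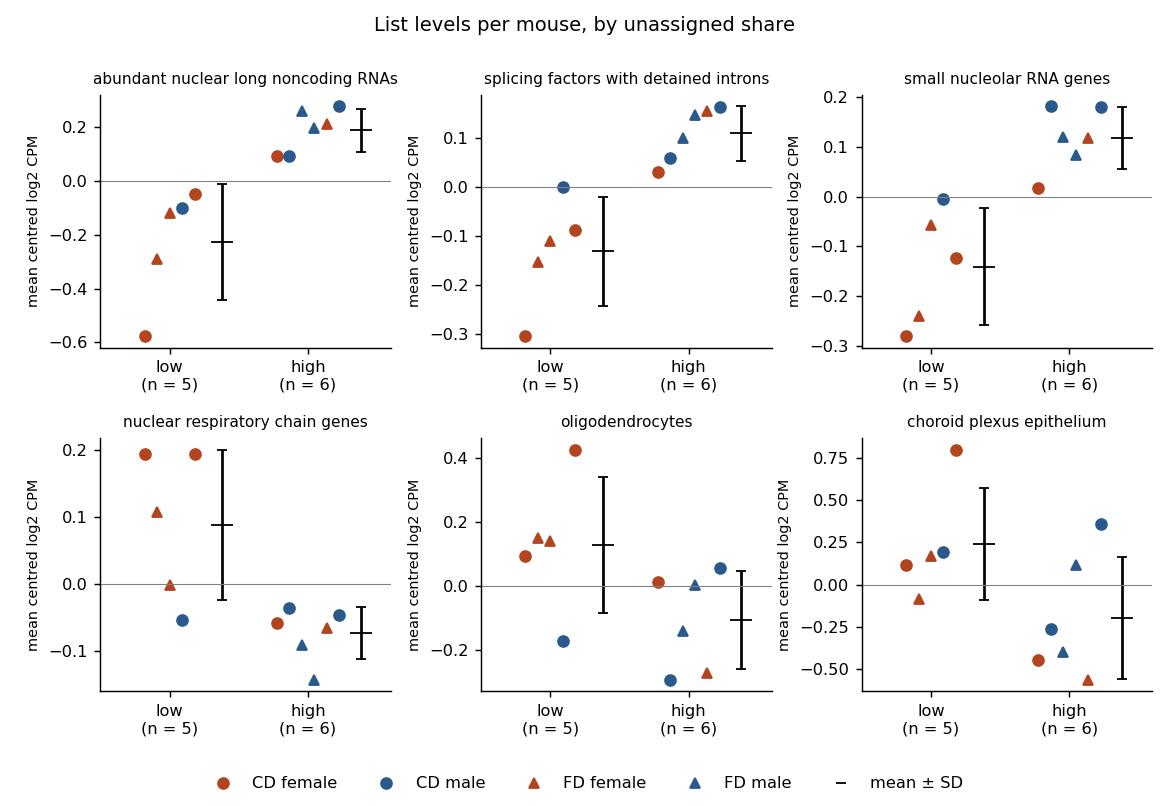
Mean centred log2 CPM of 6 lists (vertical axes) in each mouse of the low and high groups (horizontal axes), with colours for sex, circles and triangles for offspring of CD and FD dams, and black bars for mean ± SD. The groups do not overlap for nuclear lncRNAs, genes with detained introns and small nucleolar RNA genes, and they overlap for respiratory chain, oligodendrocyte and choroid plexus genes.

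The comparison of maternal diets changed little when the share group entered it. With the share group as covariate, 13 genes (0.0631% of those tested) were called between FD and CD mice, all higher in FD mice, and without it 14 genes, with 13 in both. Of the 13 only Gm6977 was also called between high and low share, lower by 0.29. Of the 13, 11 have a Gm number in place of a gene name. With the replicate block the diet comparison called 30 genes. No gene was called for a high minus low difference that depended on diet (edgeR, interaction term, 0 calls, 773 genes at an unadjusted p under 0.05). The low group held only 2 FD mice, both female, so this term cannot show that no gene depended on diet.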

How the data were processed

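Per the labels and the methods of the study, reads were trimmed and aligned to mm10 (GRCm38) with STAR, uniquely aligned reads were counted per gene with featureCounts (the summary lines have the form of HTSeq), and the authors deposited raw counts for each mouse. Annotation release and strand setting are not given in the sources used here. Positions and types come from GENCODE vM21, which matched 36429 of 38293 genes.

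Genes reaching 10 counts over all mice were fitted with edgeR 4.0.16 in R 4.3.3 (TMM, quasi-likelihood test, diet as covariate, Benjamini-Hochberg, the study's threshold of 0.1). The SE is the log2 difference divided by the square root of F. Levels are TMM-scaled CPM, on the log2 scale with a prior count of 2. Library measures were compared by exact permutation, adjusted over 9 measures, with a threshold of 0.05. Of these measures, total counts and reads on more than 1 gene are part of the share. In simulated data with 20589 genes the comparison recovered 99% of 200 genes changed 2-fold, with 8.33% false calls, but noise shared between genes was not simulated. The changed genes were drawn from those with higher counts, so the recovery of smaller changes or of genes with few counts was not tested. Total counts of 11737554 to 44447006 make 3 counts worth 0.0675 to 0.256 CPM before scaling, for counting error only.

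Groups, lists and tests were chosen with earlier results of these data known. Named genes are the 8 of smallest p and the 4 of largest difference in each direction at 1 CPM or more on average, the 2 of smallest p in each list, and Ttr, Otx2, Prlr and Malat1. Other genes were chosen after their values were seen. Fits within 1 sex, the share as a number beside sex, permutation within sex and the interactions were added after seeing the data. CD and FD mice of the same sex and number deviated together in all 5 pairs (r from 0.307 to 0.540), so the numbers were treated as pairs, though what they mark is not stated. DESeq2 1.42.0 served as an alternative test. Figures were drawn with matplotlib 3.10.9 in Python 3.11.15.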

Additional observations from a re-analysis of the deposited data

Results flagged for a closer look

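Single mice stood apart from the others of their share group in 14 of 168 groups of values tested with Dixon's criterion, which chance alone meets in about 1 of 20. In the high group, CD male 3 had 44447006 counts on genes, CD male 2 had 0.0163% of counts on small noncoding RNA genes, FD male 2 had 40.7 CPM of Calb2 and 24.8 CPM of Ogn, CD female 2 had 12.7 CPM of Rorb, and CD male 2 had 31.6 CPM of Ttr and 18.1 CPM of Tmem119. In the low group, CD male 1 had 116 CPM of Sst, 78.3 CPM of Necab2 and 1424 CPM of Gria2, FD female 3 had 1.04 CPM of Six3 and 1.08 CPM of F5, and CD female 3 had 18.4 CPM of Rorb and 54.7 CPM of Ttr.

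The interaction of share group and sex in edgeR called 2 genes. The low males are 1 mouse, CD male 1, so the term sets this mouse against the low females and shows no dependence on sex. For Apoe, an apolipoprotein of astrocytes, the male difference exceeded the female by 0.58 (SE 0.0836, adjusted p = 0.0327), and for Lyst, a regulator of lysosomes, it was below it, with an interaction of -0.63 (SE 0.0898, adjusted p = 0.0327). CD male 1 had 807 CPM of Apoe against 1055 to 1157 in the low females, and 152 CPM of Lyst against 95.7 to 118.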

How the results depend on the processing

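The main counts, 746 higher and 621 lower, moved to 1082 and 885 with DESeq2, 1445 and 1334 without the count filter, 942 and 686 with at least 10 counts in every mouse, 3 and 0 with sex as covariate, 373 and 159 with log2 depth as covariate, 0 and 0 with the replicate block, 1645 and 1811 with the share as a number, 1021 and 988 without covariate, 390 and 488 in FD mice, 0 and 0 in CD mice, 1 and 0 in females, 414 and 343 in females with diet as covariate, 0 and 0 in males (790 at an unadjusted p under 0.05), and 381 and 140 with the share as a number beside sex. Size factors of the RLE method gave 830 and 457, so that 64.5% of calls were higher against 54.6%. Leaving out a mouse gave 2 to 2275 higher and 0 to 2475 lower. Without FD female 3 it was 2 and 0, without CD female 1 128 and 11, without CD male 2 180 and 19, and without CD male 1, which leaves only females in the low group, 2275 and 2475. The 13 diet calls became 128 without the filter, 2 with at least 10 counts in every mouse, 30 with the block, 22 with the share as a number, 9 with sex, and 4 to 14 without a mouse.

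Within sex, the lncRNA difference was 0.210 and the small noncoding difference 0.00270 percentage points, neither past the threshold after adjustment. Pseudogenes changed sign within sex (0.0017) and without FD female 3 (0.000615). Without a mouse, the lncRNA difference was 0.161 to 0.224, small noncoding RNA 0.00226 to 0.00354, ribosomal protein -0.0280 to -0.0164, reads on more than 1 gene (given without a test) -0.0820 to -0.0493 and pseudogenes -0.00623 to 0.000615. Library measures could not be blocked, since 1 pair held both a low and a high mouse.

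Among named genes that were called, the sign turned with the replicate block for Tubb4a (0.102), Rtl8a (0.00265), Pllp (0.0598), Wscd1 (0.0279), Kmt2a (-0.0166), Calb2 (0.000346), Npy (0.0459), Kmt2c (-0.14), Sst (0.18), Klk6 (0.0585), Cnp (0.187), Cldn11 (0.0832), Gpr37l1 (0.0791), Necab2 (0.119), Flt1 (-0.091), Ppp1r1b (0.0422), Sostdc1 (0.0864), Grin2b (-0.149) and Myh11 (-0.722), and in males for Npy (0.0442), Sst (0.0853), Cnp (0.0629), Cldn11 (0.0499), Gpr37l1 (0.0419), Junb (0.0189), Necab2 (0.0717), Ppp1r1b (0.0995), Foxj1 (0.0577) and Six3 (0.375). Sign changes of genes never called were not counted. Both fits rest on CD male 1, the low mouse of the only pair that held both share groups and the only low male. The changes in the 2 fits are thus not separate checks. The cause of these changes was not tested.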

Other observations

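Of the genes called lower, Klk6, a protease of oligodendrocytes, had the largest log2 difference at a mean of at least 1 CPM, -0.92 (SE 0.264, adjusted p = 0.0759), with 0.680 to 1.86 CPM in the low and 0.495 to 1.11 CPM in the high mice. Calml4, a calmodulin-like protein, followed at -0.81 (SE 0.187, adjusted p = 0.0433) without overlap, with 1.61 to 2.397 CPM against 0.700 to 1.38 CPM. The complement component C3 differed by -0.72 (SE 0.198, adjusted p = 0.0701) and Gkn3 by -0.67 (SE 0.211, adjusted p = 0.0926), both with overlap. These 4 genes had as few as 7 to 13 counts in a mouse. Of 25 tested genes of replication-dependent histones, out of 59 listed, 1 was called higher and 0 lower, with a median of 0.01.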
